A study of Mus musculus with 4 samples.

Results

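The immediate early transcription factors described here are 10 genes found by symbol among the 32285 features of the deposited matrices: Nr4a1, Nr4a2, Nr4a3, Egr1, Egr2, Egr3, Fos, Fosb, Jun and Junb. All 10 were present, each on 1 row. They were chosen by symbol after their CPM in these same libraries and cell classes had been seen, so every level and ratio is given as a description. The comparison of interest sets the 6 NR4A and EGR members beside the 4 FOS and JUN members. CD45+ cells, that is leukocytes, were sorted from 2153L tumours and profiled by droplet 3′ single-cell RNA sequencing. The 2153L tumour arose in a genetically engineered mouse and was transplanted here into Balb/c females, in the mammary fat pad. Hosts received vehicle, ORIN1001 alone at 150 mg/kg (an inhibitor of the RNase of IRE1α, a sensor of endoplasmic reticulum stress), docetaxel alone at 20 mg/kg (a microtubule-stabilising chemotherapy), or a combination of the drugs at those doses, for 8 days in each of the 4 groups. All groups shared the tumour line and the host strain. Each group was 1 library, and the number of mice pooled in a library is not given in the sources used here. Differences between groups therefore cannot be told apart from differences between single libraries, no test was run, and intervals cover counting error only.

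Immediate early genes are transcribed within minutes of a signal without new protein synthesis, because their promoters are served by factors already in the nucleus, such as serum response factor with its partners and CREB. The NR4A proteins are orphan nuclear receptors that bind DNA without a known ligand, and the EGR proteins are zinc-finger factors that recognise GC-rich sites. FOS and JUN proteins pair to form AP-1. In T cells Nr4a1 follows antigen receptor signals and NR4A and EGR factors restrain activated cells. In myeloid cells the same genes respond to growth factors and inflammatory signals. FOS and JUN transcripts are also known to accumulate while tissue is dissociated into single cells. Handling was not tested for the members of either family, so neither family serves here as a control for it.

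Libraries held between 8464 and 10362 barcodes and between 64257802 and 86383509 UMIs (unique molecular identifiers, each standing for 1 captured RNA molecule), and between 7786 and 9400 cells were kept. Of the smaller library of any pair, 1.13% to 1.52% of barcodes also occurred in the other. Each cell was assigned to a class by its marker genes, and 23 to 98 cells a library carried epithelial or tumour cell markers in spite of the CD45+ sort. There were 5197 (vehicle), 5635 (ORIN1001), 4001 (docetaxel) and 3242 (combination) neutrophils. In the same order there were 2203, 1002, 1566 and 1432 macrophages and 1023, 952, 1103 and 2344 T cells. The classes carried their defining markers: the 8 macrophage markers summed to between 27907 and 32465 CPM (counts per 1000000 UMIs of the class) in macrophages and to between 170 and 521 CPM in neutrophils. The neutrophil markers themselves were uneven between libraries, at 76494, 87134, 41113 and 34743 CPM in neutrophils of vehicle, ORIN1001, docetaxel and the combination. The part of this unevenness in the results on neutrophils was not tested beyond the values within clusters below.

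The stretches upstream of the start sites are shown first for the NR4A genes, where 1 short motif recurs. RefSeq's promoter table for GRCm38.p6 held 8 of the 10 members, with 12 promoters between them, and the 250 bases before each start were searched on both strands. Egr1 and Egr3 were not in it and were not searched for any motif. The core of a CREB site, TGACG, had been added after the full site TGACGTCA, which overlaps it, had given no match in any of these 8. It occurred 4 times before Nr4a1, 4 times before Nr4a2 and 4 times before Nr4a3, whereas 17.8% of 32851 mouse promoters held it at least once and 0.137% held it 4 or more times. Fos had 2 matches, 3 of the 5 Egr2 promoters, which overlap, had 2 each, Fosb and Junb had 1 each, and Jun had none. The sequences below show the NR4A clusters beside Fos and Jun, with every match to TGACG, read on either strand, in capitals.
Nr4a1, chr15:101266596-101266845, plus strand, within the longer gene model at chr15:101254269-101274795: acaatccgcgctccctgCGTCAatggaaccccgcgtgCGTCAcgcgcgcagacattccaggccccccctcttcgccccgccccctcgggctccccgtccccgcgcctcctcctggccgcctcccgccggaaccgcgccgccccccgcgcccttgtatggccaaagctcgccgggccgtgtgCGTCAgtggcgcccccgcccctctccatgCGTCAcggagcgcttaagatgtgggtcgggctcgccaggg
Nr4a2, chr2:57124004-57124253, minus strand, before the gene at chr2:57106830-57124003: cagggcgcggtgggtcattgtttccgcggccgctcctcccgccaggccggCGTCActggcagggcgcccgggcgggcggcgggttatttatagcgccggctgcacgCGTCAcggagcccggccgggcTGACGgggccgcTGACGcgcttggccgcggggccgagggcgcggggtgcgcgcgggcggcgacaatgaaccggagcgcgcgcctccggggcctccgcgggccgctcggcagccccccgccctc
Nr4a3, chr4:48045055-48045152, plus strand, the part of the window before the gene at chr4:48045153-48086447, with 3 of its 4 matches: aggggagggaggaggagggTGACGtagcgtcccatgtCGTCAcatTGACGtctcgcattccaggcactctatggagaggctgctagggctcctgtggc
Fos, chr12:85473640-85473889, plus strand, before the gene at chr12:85473890-85477273: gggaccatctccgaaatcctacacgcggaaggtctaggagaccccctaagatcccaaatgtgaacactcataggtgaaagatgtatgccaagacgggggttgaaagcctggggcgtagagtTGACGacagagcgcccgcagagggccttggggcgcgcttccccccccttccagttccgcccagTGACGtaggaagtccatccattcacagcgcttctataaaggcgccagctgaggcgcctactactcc
Jun, chr4:95052223-95052472, minus strand, before the single-exon gene at chr4:95049034-95052222: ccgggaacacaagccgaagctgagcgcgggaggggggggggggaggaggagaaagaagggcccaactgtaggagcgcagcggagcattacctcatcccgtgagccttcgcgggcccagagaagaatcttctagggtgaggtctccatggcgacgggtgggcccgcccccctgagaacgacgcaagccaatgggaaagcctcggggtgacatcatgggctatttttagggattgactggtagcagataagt

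Egr2, on chr10:67535475-67542188, carried the other classical element of this gene class. A CArG box, the site of serum response factor, stood in 4 of its 5 listed promoters and in 1.47% of all promoters. These 30-base stretches show its forms, with the box in capitals, first from the promoter further upstream and then from the 3 overlapping promoters that share 1 box.
Egr2, chr10:67537484-67537513, plus strand: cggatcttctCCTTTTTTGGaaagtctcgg
Egr2, chr10:67537787-67537816, plus strand: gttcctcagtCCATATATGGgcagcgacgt
The EGR site GCGNGGGCG was found before Nr4a1, Nr4a2 and Fosb, against 4.70% of all promoters. None of the 8 members searched held the AP-1 site TGANTCA or the NR4A site AAAGGTCA in this window, and Egr1 and Egr3 were not searched. A match is a run of letters and was not tested for binding.

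In the vehicle library the members were spread unevenly over the cell classes. Egr1, whose product drives growth-factor response genes, was highest in neutrophils at 5908 CPM and stood at 969 CPM in monocytes, 849 CPM in macrophages and 211 CPM in T cells. Egr2 and Egr3 had the same leading class, with 152 CPM and 111 CPM in neutrophils. Junb, an AP-1 partner, was also highest there at 8215 CPM, followed by gamma-delta T cells at 3218 CPM and monocytes at 3112 CPM, whose counting intervals overlapped.

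The NR4A genes each had another leading class. Nr4a1, which encodes Nur77, was at 839 CPM (95% interval 804 to 876) in monocytes and at 792 CPM (779 to 806) in neutrophils, values whose intervals overlapped. Among T cells in vehicle it was highest in the regulatory subset at 520.1 CPM and lowest in the CD8 subset at 165 CPM. Nr4a2, which encodes Nurr1, was highest in NK cells at 219 CPM and was at 30.7 CPM in neutrophils. Nr4a3, which encodes NOR1, stood apart in the 30 mature dendritic cells of the vehicle library, at 377 CPM against 160.0 CPM in conventional DC2 and 158 CPM in conventional DC1. Fosb was lowest in neutrophils at 36.8 CPM and was at 285 CPM in macrophages.

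**Figure D1:**
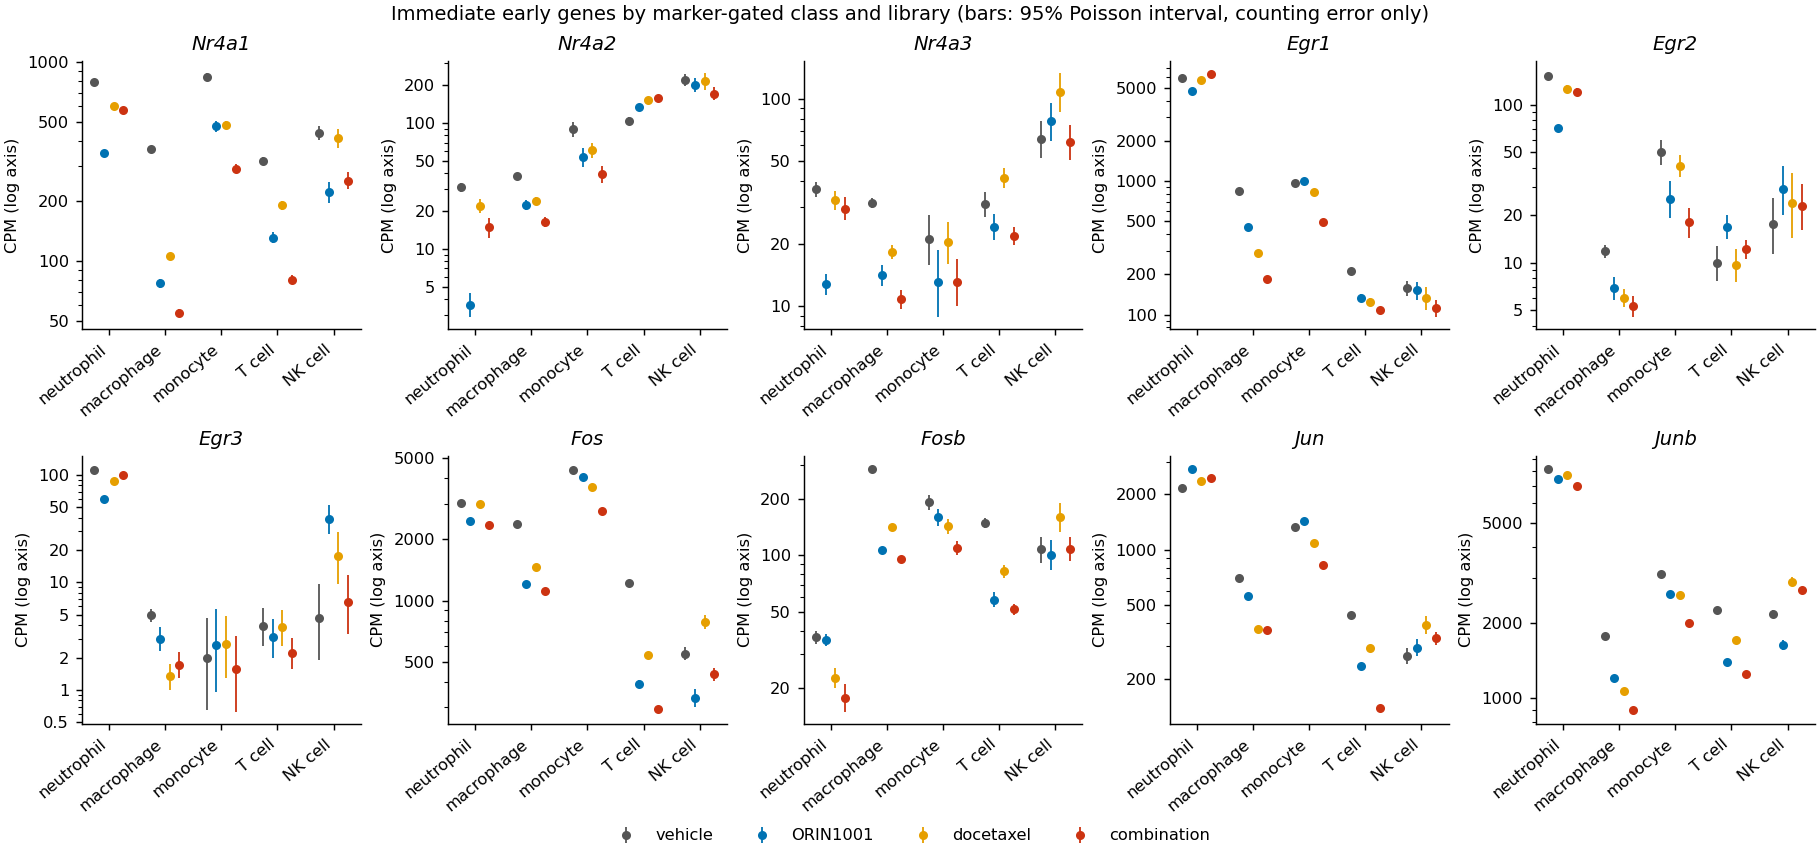
CPM of each member (log axis) in 5 marker-gated classes, with 1 point per library coloured by group and bars for the 95% Poisson interval. Nr4a1 in vehicle lies above every drug library in all 5 classes, while Nr4a2 in T cells is lowest in vehicle.

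Against vehicle, Nr4a1 was the member with the most uniform direction. It was lower in 15 of 15 comparisons over neutrophils, macrophages, monocytes, T cells and NK cells, 12 of them by more than 1.5-fold, a fold that between 3.31% and 11.5% of all genes passed in that direction. The smallest difference, -0.09 on the log2 scale, was in NK cells under docetaxel. Jun was the least uniform, lower in 8 and higher in 7 of 15. Fos was lower in 14 of 15, Fosb, Egr1 and Junb in 13, and Nr4a2 and Nr4a3 in 12. The drug libraries share the vehicle library, so these directions are not independent of each other.

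In neutrophils, the largest class, ORIN1001 was the library in which the NR4A genes were lowest. Nr4a1 was at 792 CPM in vehicle, 348 with ORIN1001, 601 with docetaxel and 572 with both drugs. ORIN1001 stood below the other 3 libraries, with a log2 ratio to vehicle of -1.19 (95% interval -1.23 to -1.15). Nr4a2 was at 30.7, 3.60, 21.9 and 14.8 CPM in the same order, a log2 ratio of -3.09 (-3.45 to -2.75) for ORIN1001, where 81 UMIs in 52 cells carried the value. Nr4a3 was at 36.6, 12.8, 32.4 and 29.6 CPM, a log2 ratio of -1.52 (-1.73 to -1.32) for ORIN1001.

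The EGR genes were lowest in the same neutrophil library, to differing extents. Egr2, which has a role in myeloid differentiation, was at 152, 70.9, 126 and 121 CPM in vehicle, ORIN1001, docetaxel and the combination, a log2 ratio of -1.10 (-1.20 to -1.01) for ORIN1001. Egr3 was at 111, 59.7, 87.0 and 99.9 CPM, a log2 ratio of -0.90. Egr1 was at 5908, 4729, 5747 and 6359 CPM, a log2 ratio of -0.32 (-0.33 to -0.31) and the smallest of the 6. Under ORIN1001, 5 of the 6 NR4A and EGR members were thus more than 1.5-fold lower than in vehicle, where 8.06% of all genes tested in neutrophils were.

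FOS and JUN members stayed within 1.5-fold of vehicle in the same ORIN1001 neutrophils. With 8.06% of all genes lower by that fold, 0 of 4 is close to the share and is not read as a result. Fos was at 3009.7, 2471, 2971 and 2367 CPM in vehicle, ORIN1001, docetaxel and the combination, and Junb at 8215, 7461, 7757 and 7007 CPM. Jun was at 2164, 2755, 2357 and 2451 CPM, highest in ORIN1001 with a log2 ratio of 0.35 (0.33 to 0.37). Fosb was at 36.8, 35.7, 22.4 and 17.7 CPM, level with vehicle in ORIN1001 and lowest in the combination. The median log2 ratio of ORIN1001 to vehicle was -1.15 over the NR4A and EGR members, -0.09 over the FOS and JUN members (0.013 with TMM scaling, which turns its sign) and -0.09 over all 10014 genes tested in the class.

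In neutrophils summed over clusters, the NR4A and EGR members of the libraries with docetaxel lay closer to vehicle than those of ORIN1001. Docetaxel to vehicle gave medians of -0.31 for NR4A and EGR and -0.05 for FOS and JUN against 0.10 for all genes. Only Fosb was more than 1.5-fold lower there, where 4.03% of genes were. Combination to vehicle gave medians of -0.32 and -0.29 against 0.03 for all genes, with Nr4a2 and Fosb more than 1.5-fold lower and 11.5% of all genes past that fold. The libraries given ORIN1001 differed from each other. The combination was higher than ORIN1001 alone for all 6 NR4A and EGR members, 5 of them by more than 1.5-fold (20% of all genes were), with a median log2 ratio of 0.75 against 0.16 for all genes. Over FOS and JUN the same contrast had a median of -0.13, and 1 member of 4, Fosb, was more than 1.5-fold lower (10% of all genes were).

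**Figure D2:**
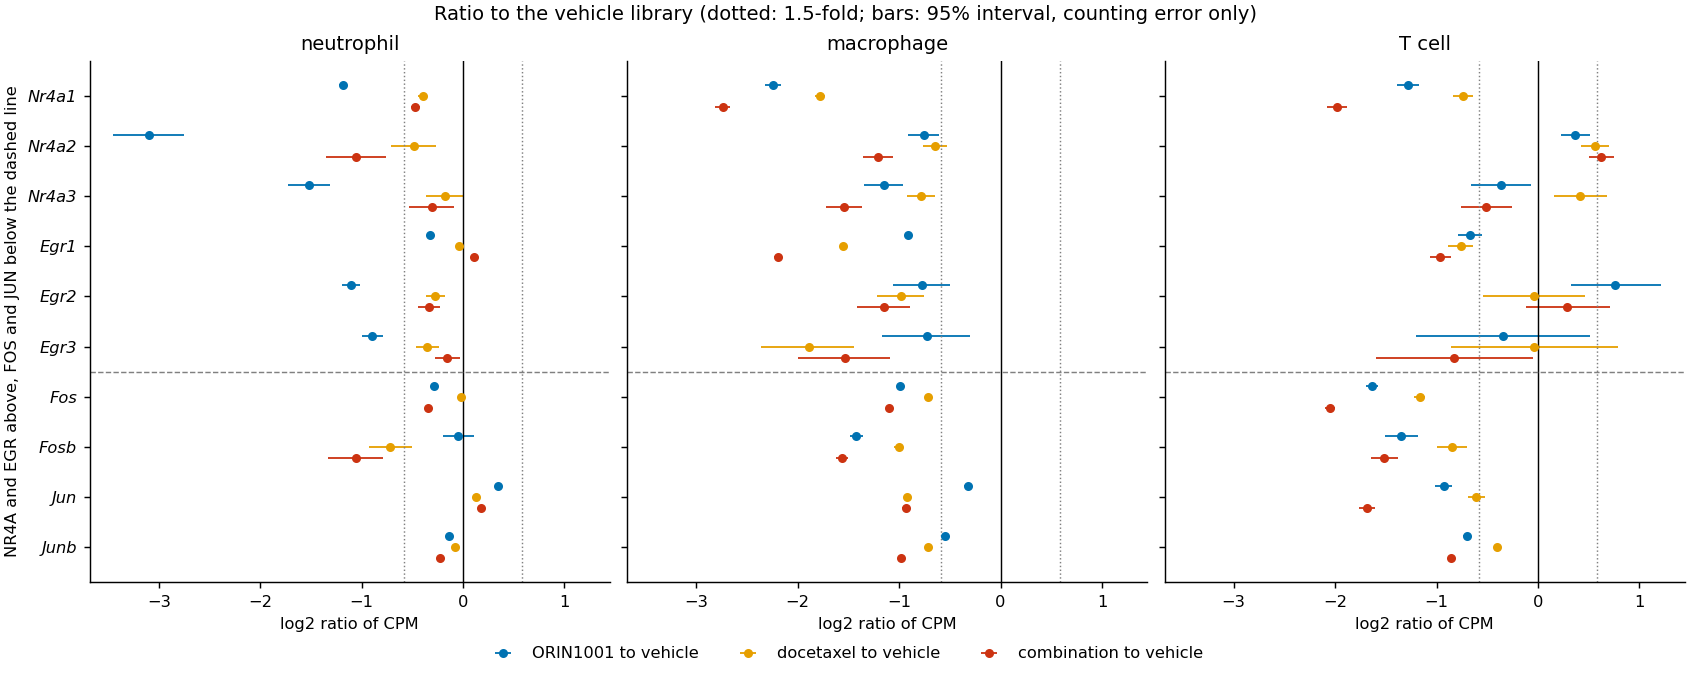
Log2 ratio of CPM to the vehicle library for each member in neutrophils, macrophages and T cells, with 1 point per drug library, bars for the 95% interval and dotted lines at 1.5-fold. In neutrophils 5 of the 6 ORIN1001 points above the dashed line lie past 1.5-fold. In macrophages every point lies left of 0, and in T cells Nr4a2 lies right of 0 in all 3 libraries.

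Neutrophils of the 4 libraries lay in different clusters, which were made without the immediate early genes. The cluster with most vehicle neutrophils held 1569 vehicle, 1823 ORIN1001, 661 docetaxel and 88 combination cells, and the one with most combination neutrophils held 238, 438, 767 and 1611. Nr4a1 was lower in ORIN1001 than in vehicle in 7 of 7 neutrophil clusters, with log2 ratios from -1.69 to -0.76. Egr1, Egr2 and Egr3 were lower in 7 of 7, and Egr3 ran from -1.54 to -0.53. Jun was higher in 7 of 7, from 0.18 to 0.64. For the combination, 5 of the 6 NR4A and EGR members were lower than vehicle in most clusters. Their median differences were larger than in the sums, except for Nr4a2, where they were about the same. Nr4a1 was lower in 6 of 7 clusters (median -0.75, from -2.29 to 0.25), Nr4a2 in 5 of 5 (median -1.06) and Nr4a3 in 6 of 6 (median -1.004). Egr2 was lower in 6 of 7 (median -0.76) and Egr3 in 5 of 7 (median -0.41), while Egr1 was higher in 5 of 7 (median 0.11). The sums gave -0.47 for Nr4a1, -1.05 for Nr4a2, -0.31 for Nr4a3 and -0.34 for Egr2.

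**Figure D3:**
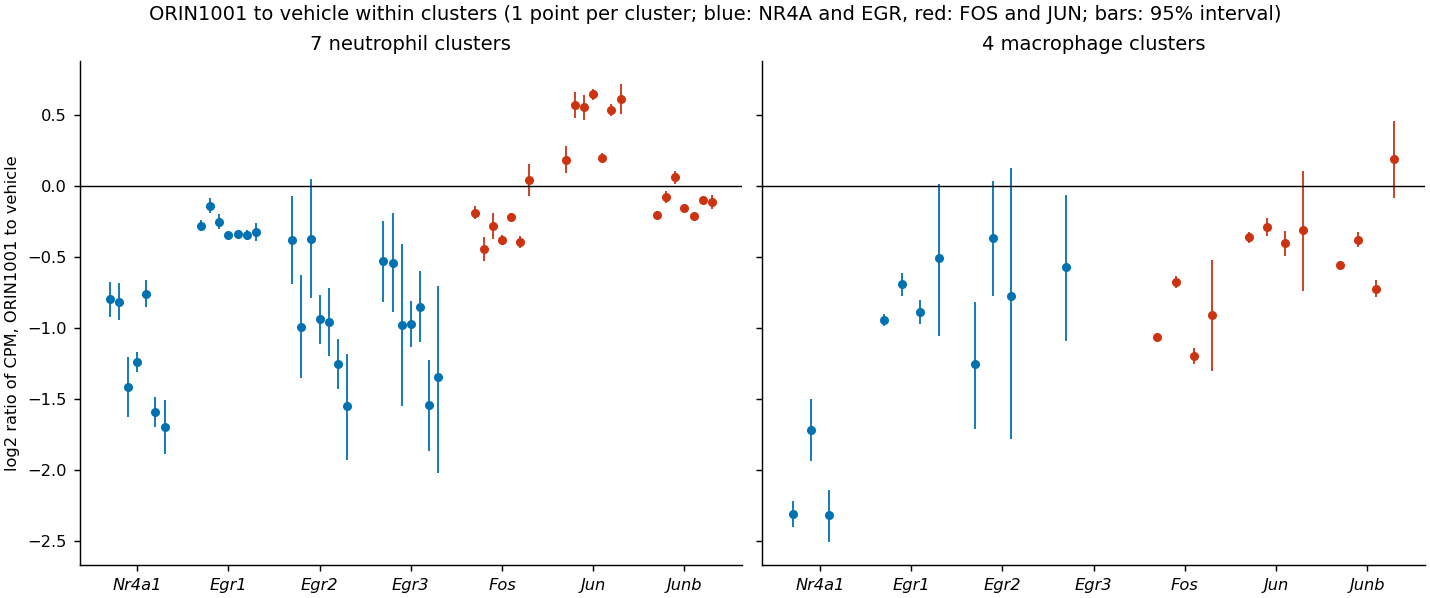
Log2 ratio of CPM, ORIN1001 to vehicle, within each neutrophil or macrophage cluster for 7 members, with 1 point per cluster that had enough counts and bars for the 95% interval. In neutrophil clusters the blue NR4A and EGR points lie below 0 and the Jun points above it, and in macrophage clusters all points but 1 of Junb lie below 0.

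In macrophages both families were lower in every drug library. Nr4a1 was at 366 CPM in vehicle, 77.4 with ORIN1001, 106 with docetaxel and 54.9 with both drugs. All 3 drug libraries stood below vehicle, with log2 ratios of -2.24 (-2.32 to -2.17), -1.78 (-1.83 to -1.73) and -2.74 (-2.81 to -2.67). Nr4a2 was at 37.6, 22.2, 24.0 and 16.3 CPM and Nr4a3 at 31.4, 14.1, 18.3 and 10.8 CPM, with the combination lowest for both. In each, the log2 ratio of combination to vehicle was below -1, at -1.20 (-1.35 to -1.06) for Nr4a2 and -1.54 (-1.72 to -1.36) for Nr4a3.

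Among the EGR genes of macrophages, Egr1 had the widest span. It was at 849, 451, 289 and 185 CPM in vehicle, ORIN1001, docetaxel and the combination, a log2 ratio of -2.20 (-2.24 to -2.16) for the combination. Egr2 was at 11.8, 6.90, 5.97 and 5.32 CPM, low in all libraries and highest in vehicle. Egr3 was at 4.97, 3.01, 1.34 and 1.72 CPM, from 365 UMIs in the 4 libraries together.

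The FOS and JUN members of macrophages were lower too. Fos was at 2394 CPM in vehicle, 1207 with ORIN1001, 1461 with docetaxel and 1120.4 with both drugs, and Fosb at 285, 106, 142 and 96.3 CPM. Vehicle again stood above the 3 drug libraries for both genes. Jun was at 704, 563, 372 and 368 CPM and Junb at 1761, 1204, 1071 and 893 CPM. For Jun the smallest difference was that of ORIN1001, a log2 ratio of -0.32 (-0.36 to -0.29).

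Counted over macrophages, 8 of 10 members were more than 1.5-fold lower than vehicle under ORIN1001, 10 of 10 under docetaxel and 10 of 10 under the combination. Over all genes tested in the class the shares were 3.31%, 4.65% and 8.34%. NR4A and EGR medians were -0.84, -1.27 and -1.54 in these libraries, and FOS and JUN medians were -0.77, -0.82 and -1.04, while the medians of all genes were within 0.01 of 0. The families thus lay closer together under ORIN1001 in macrophages than in neutrophils, a difference that was not tested. Nr4a1 was lower in each drug library in all 3 macrophage clusters with enough counts, with ratios of ORIN1001 from -2.32 to -1.72. Under docetaxel, Egr1, Fos and Junb were each higher than vehicle in 1 of 4 macrophage clusters.

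Combined treatment against each drug alone gave smaller values in macrophages. Combination to docetaxel had a median of -0.60 over NR4A and EGR and -0.32 over FOS and JUN. In that contrast, 3 members, Nr4a1, Nr4a3 and Egr1, were more than 1.5-fold lower, against 3.91% of all genes. Combination to ORIN1001 had medians of -0.47 and -0.29, and 3 members, Egr1, Egr3 and Jun, were past the same fold, against 7.81% of genes.

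Monocytes, which numbered between 150 and 293 a library, had both families lower under the combination, as macrophages did. Nr4a1 was at 839 CPM in vehicle, 474 with ORIN1001, 481 with docetaxel and 291 with both drugs, where the log2 ratio was -1.53 (-1.63 to -1.43). Fos was at 4406, 4058, 3638 and 2754 CPM. All 9 members with enough counts were more than 1.5-fold lower in the combination than in vehicle, against 7.77% of all genes. Under ORIN1001 there were 4 such members, Nr4a1, Nr4a2, Nr4a3 and Egr2, against 3.83%, and under docetaxel 1, Nr4a1, against 5.94%. No FOS or JUN member passed that fold in monocytes of either single drug. For 4 genes this is close to the shares of 3.83% and 5.94%, and it is not read as a result. Markers of other classes moved with these values: in vehicle, ORIN1001, docetaxel and the combination the 8 macrophage markers summed to 5082, 4431, 3534 and 2611 CPM in monocytes and the 8 neutrophil markers to 1867, 2827, 1071 and 489 CPM. Their part in the result was not tested.

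In T cells summed over all subsets, FOS and JUN had larger median differences than NR4A and EGR. Fos was at 1217 CPM in vehicle, 392 with ORIN1001, 542 with docetaxel and 293 with both drugs, and its log2 ratios were -1.63 (-1.69 to -1.57), -1.17 (-1.22 to -1.11) and -2.05. Fosb was at 148, 58.3, 82.6 and 51.9 CPM, Jun at 444, 233, 291 and 138 CPM, and Junb at 2254, 1387, 1705 and 1243 CPM. Vehicle was the highest and the combination the lowest library for each of these 4 genes. Their medians were -1.14, -0.73 and -1.60 in ORIN1001, docetaxel and the combination, against 0.06, 0.03 and 0.05 for all genes. The subsets that make up T cells moved with this: gamma-delta T cells, in which vehicle Fos was at 2660 CPM against 494 in CD8 T cells, were 17.1% of T cells in vehicle and 5.36%, 5.80% and 6.31% in ORIN1001, docetaxel and the combination. Within T cell clusters the median log2 ratios of Fos were smaller, at -0.90, -0.83 and -0.90, and Fos was lower in 5 of 5, 5 of 5 and 6 of 6 clusters. For the combination the cluster medians were -0.67 for Fosb, -0.93 for Jun and -0.27 for Junb. Nr4a1 had cluster medians of -1.36, -0.62 and -1.55, larger than those of Fos under ORIN1001 and the combination. In the T cell sums Nr4a1 was at -1.28, -0.74 and -1.98, smaller differences than those of Fos. These were already at or past the FOS and JUN medians, so the order of the families did not hold for Nr4a1 in the sums either.

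The NR4A and EGR genes of T cells were divided. Nr4a1 was at 318 CPM in vehicle, 131 with ORIN1001, 191 with docetaxel and 80.8 with both drugs, a log2 ratio of -1.98 (-2.08 to -1.88) for the combination. Nr4a2 was lowest in vehicle, at 104, 134, 153 and 159 CPM, and log2 ratios of 0.37 (0.23 to 0.51), 0.56 (0.43 to 0.70) and 0.62 (0.50 to 0.75). Nr4a3 was at 31.2, 24.2, 41.6 and 21.9 CPM, above vehicle in docetaxel only. Egr1 was at 211, 133, 125 and 108 CPM, Egr2 at 9.98, 16.9, 9.70 and 12.2 CPM, and Egr3 between 2.21 and 3.93 CPM. Of the 10 members, 6 under ORIN1001, 5 under docetaxel and 7 under the combination were more than 1.5-fold lower than vehicle, against 3.46%, 3.54% and 6.45% of all genes. Egr2 in ORIN1001 (6.36% of genes were) and Nr4a2 in the combination (7.55%) were more than 1.5-fold higher. For Egr2, 22 of the 131 UMIs in ORIN1001 came from 1 cell, and the level without that cell was 14.1 CPM.

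Subsets of T cells differed in Nr4a2. In the CD8 subset Nr4a2 was at 154, 178, 218 and 192 CPM in vehicle, ORIN1001, docetaxel and the combination, above vehicle in all 3 drug libraries. In the CD4 conventional subset it was at 85.1, 28.4, 27.6 and 37.2 CPM and in the gamma-delta subset at 76.0, 16.2, 18.2 and 25.2 CPM, below vehicle in all 3. In vehicle gamma-delta T cells 27 of 93 UMIs of Nr4a2 came from 1 cell, without which the level was 54.3 CPM. The CD8 subset made up 37.5% of T cells in vehicle, 47.8% with ORIN1001, 49.7% with docetaxel and 57.3% with both drugs. Within T cell clusters with enough counts Nr4a2 was lower than vehicle in 2 of 3 under ORIN1001, 2 of 3 under docetaxel and 2 of 4 under the combination, while Nr4a1 was lower in 5 of 5, 5 of 5 and 6 of 6. The part of this makeup in the T cell value of Nr4a2 was not tested.

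Among the 4 T cell subsets, Nr4a1 had its smallest differences in regulatory T cells, a FOXP3-expressing subset. There it was at 520.1 CPM in vehicle, 471 with ORIN1001, 467 with docetaxel and 269 with both drugs, and only the counting interval of the combination was clear of the others. CD8 T cells had 165, 50.2, 83.4 and 42.4 CPM, with vehicle highest, and a log2 ratio of -1.72 (-1.98 to -1.47) for ORIN1001 against -0.14 (-0.37 to 0.09) in regulatory T cells. CD4 conventional T cells had 309, 137, 190.0 and 76.8 CPM and gamma-delta T cells 443, 173, 166 and 176 CPM. Fos in CD8 T cells was at 494, 187, 287 and 137 CPM. In regulatory T cells it was at 599, 516, 566 and 374 CPM, so that both genes spanned less there. Egr1 in regulatory T cells was lowest in vehicle, at 109, 177, 151 and 167 CPM, with 16.2% to 28.3% of each library's UMIs in 1 cell. Subsets were called by detection of marker UMIs, and the vehicle library had 79 regulatory T cells.

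NK cells had the opposite sign for the FOS and JUN family under docetaxel. Fos was at 551 CPM in vehicle, 333 with ORIN1001, 791 with docetaxel and 437 with both drugs, and Junb at 2164, 1631, 2909 and 2692 CPM. Docetaxel was the highest library for both. Over the 4 genes the docetaxel median was 0.54 against 0.04 for all genes, and all 4 were higher, none by more than 1.5-fold. Nr4a3 was past that fold, at 63.9 CPM in vehicle and 108 in docetaxel, where 6.68% of all genes were higher by as much. Of its 86 docetaxel UMIs 20 came from 1 cell, and without the top cell of each library the levels were 60.8 and 84.2 CPM, within 1.5-fold. Nr4a1 was at 439, 221, 413 and 253 CPM, lower in both libraries with ORIN1001, with log2 ratios of -0.99 (-1.20 to -0.78) and -0.79 (-0.97 to -0.61). Under ORIN1001, 2 of 10 members, Nr4a1 and Fos, were more than 1.5-fold lower, against 3.88% of genes. In the same library 2 others, Egr2 and Egr3, were higher by that fold, against 4.19%. Of the 8 members with enough counts under docetaxel none was more than 1.5-fold lower, against 5.96% of genes. This count is close to the share and is not read as a result. Under the combination Nr4a1 alone of 9 members was lower by that fold, against 4.58%, a count that rests on 1 gene. Egr3 under ORIN1001 was carried by few cells, with 17 of its 44 UMIs in 1 cell and 24.2 CPM without that cell against 39.0 with it and 4.71 in vehicle. There were between 95 and 248 NK cells a library.

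Mature dendritic cells, which migrate to lymph nodes and present antigen, were the class with the highest Nr4a3. It was at 377 CPM (95% interval 319 to 443) in the 30 cells of vehicle, 577 CPM in 68 cells of docetaxel and 684 CPM in 25 cells of the combination. In the same cells Fos was at 789, 605 and 279 CPM, the reverse order. ORIN1001 held 16 such cells, too few for a level. In conventional DC1, where Nr4a3 was at 158, 69.4, 120.0 and 64.4 CPM in vehicle, ORIN1001, docetaxel and the combination, vehicle was highest.

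Shares of cells with a UMI were compared after every cell had been thinned to 1000 UMIs, which left out 9 to 20 macrophages a library. No class was taken to lack these genes, so no background share is given. Nr4a1 was found in 23.6% of macrophages in vehicle, 6.14% with ORIN1001, 8.09% with docetaxel and 5.36% with both drugs. Without thinning the Nr4a1 shares were 68.1%, 38.4%, 56.1% and 38.5%, at median depths of 17441, 18931.5, 24200.0 and 20873.5 UMIs. In neutrophils the thinned Nr4a1 shares were 35.1%, 18.4%, 29.1% and 27.4%, and in T cells they lay between 7.69% in the combination and 21.8% in vehicle. Egr1 was found in 42.0%, 22.1%, 19.2% and 15.2% of thinned macrophages and in 90.9%, 84.8%, 90.0% and 92.7% of thinned neutrophils. Fosb, at 22.1%, 7.75%, 13.1% and 9.46% of macrophages, had its vehicle share well above the rest, with exact 95% limits of 20.3% to 23.9%.

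NR4A and EGR UMIs were found more often in macrophages that also had a FOS or JUN UMI. Among thinned vehicle macrophages with a UMI of any FOS or JUN member, 60.6% also had one of an NR4A or EGR member, against 10.2% of those without. In ORIN1001, docetaxel and the combination these shares were 37.1%, 30.5% and 25.1% with a FOS or JUN UMI and 6.69%, 11.3% and 7.17% without. The NR4A and EGR share was thus lower than vehicle among cells that had a FOS or JUN UMI. Macrophages without a FOS or JUN UMI made up 284 of 2184 cells in vehicle and 321 of 1417 in the combination. Neutrophils could not be split this way, since 99.5% to 99.8% of them had a FOS or JUN UMI.

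Heat shock genes, which also respond to tissue handling, had list medians nearer to 0 than those of both families in macrophages. In macrophages the median log2 ratio to vehicle of the 11 genes was -0.05 under ORIN1001, 0.20 under docetaxel and 0.14 under the combination. In macrophages of these libraries 0, 3 and 3 of the 11 were more than 1.5-fold lower, against 3.31%, 4.65% and 8.34% of all genes. The 0 under ORIN1001 is close to that share and is not read as a result. Under docetaxel 1 of the 11 was higher by that fold, which is not read as a result because no share of all genes is given for it. In neutrophils the median was -0.23, 0.19 and 0.28. There 1, 2 and 4 of the 11 were more than 1.5-fold lower, against 8.06%, 4.03% and 11.5% of all genes. Higher by that fold were 0, 1 and 3, where 14.7% of all genes were under the combination. For ORIN1001 and docetaxel no share of higher genes is given, so those counts are not read as a result. In T cells the median was -0.12, 0.05 and -0.12. In macrophages the inducible HSP70 genes were lower than the list's median where docetaxel was given. Hspa1a in macrophages was at 153 CPM in vehicle, 59.2 in docetaxel and 33.7 in the combination, a log2 ratio of -2.18 (-2.28 to -2.08). Hspa1b was higher than vehicle in ORIN1001 macrophages, at 172 CPM against 131, a log2 ratio of 0.39 (0.33 to 0.45), and lower in docetaxel (53.2 CPM) and the combination (33.4 CPM). In T cells Hspa1a was at 117, 54.7, 85.2 and 23.8 CPM in vehicle, ORIN1001, docetaxel and the combination, the same order of libraries as for Fos. It was thus lower there under ORIN1001 alone than under docetaxel alone. In neutrophils Hspa1a was at 153 CPM in vehicle, 46.1 in docetaxel and 9.61 in the combination. The part of dissociation or handling in the members' values was not tested, and with 1 library per group handling cannot be told apart from treatment.

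**Figure D4:**
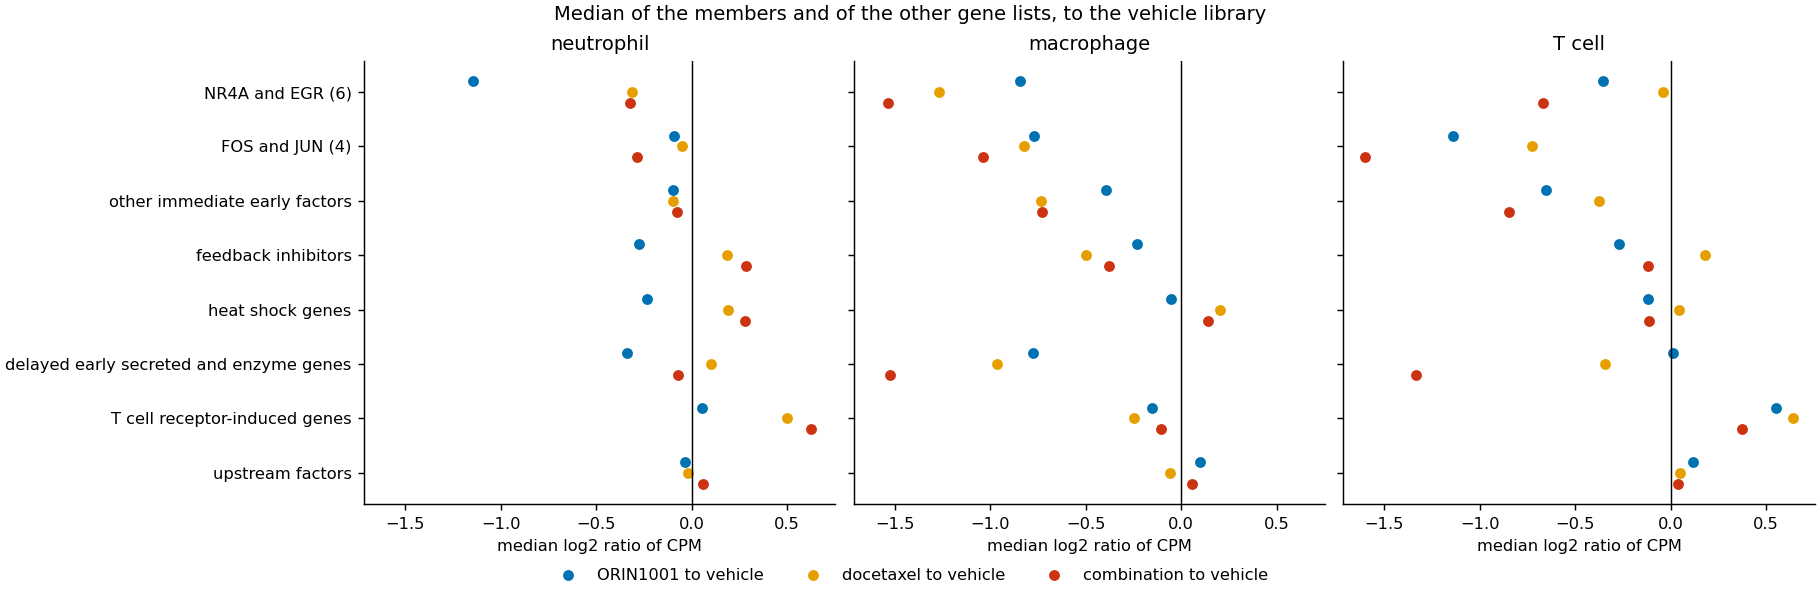
Median log2 ratio of CPM to vehicle for the 2 families and 6 further gene lists in neutrophils, macrophages and T cells, with 1 point per drug library. NR4A and EGR lie apart from every other list under ORIN1001 in neutrophils, and delayed early genes lie beside them in macrophages.

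Other immediate early factors and the delayed early genes that follow them were lower in macrophages as well. Of 14 other immediate early factors with enough counts, 13 were lower under ORIN1001, 12 under docetaxel and 14 under the combination, and 6, 8 and 9 were more than 1.5-fold lower, against 3.31%, 4.65% and 8.34% of all genes. In T cells the medians of this list were -0.65, -0.38 and -0.85, and in neutrophils they were -0.10, -0.10 and -0.08. Atf3, a stress-induced repressor, was at 1104 CPM in vehicle, 488 with ORIN1001, 504 with docetaxel and 291 with both drugs. Delayed early secreted and enzyme genes had medians of -0.77, -0.96 and -1.52, with 9 of 13, 9 of 15 and 11 of 14 more than 1.5-fold lower, against the same shares of all genes. Among them Cxcl2, a neutrophil chemoattractant, was at 1425 CPM in vehicle and 556 in ORIN1001, and Ptgs2, the inducible cyclooxygenase, at 69.1 CPM in vehicle and 16.2 in the combination. Upstream kinases and SRF, CREB and MEF2 factors had medians of 0.10, -0.06 and 0.06, and none of 15 was past 1.5-fold in any drug library. As 3.31%, 4.65% and 8.34% of all genes were lower by that fold, this count is close to the shares. It is not read as a result.

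Feedback inhibitors, which end the early response, were divided in neutrophils. Under the combination 5 of 17 were more than 1.5-fold higher than vehicle and 4 lower by that fold, against 14.7% and 11.5% of all genes. Dusp1, a phosphatase of p38 and JNK, was at 10145 CPM against 4009 in vehicle, a log2 ratio of 1.34. Dusp5, a phosphatase of ERK, was at 240.0 CPM against 621, a log2 ratio of -1.37. In macrophages Dusp5 was at 66.7 CPM in vehicle and 13.4 in the combination, a log2 ratio of -2.31. Macrophage medians of this list were -0.23, -0.50 and -0.38 in ORIN1001, docetaxel and the combination.

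Genes induced by the T cell receptor had medians above vehicle in T cells of the drug libraries, where Nr4a1 was lower. Of 14 such genes, 7 under ORIN1001, 8 under docetaxel and 6 under the combination were more than 1.5-fold higher than vehicle, against 6.36%, 7.17% and 7.55% of all genes, with list medians of 0.55, 0.64 and 0.38. In the other direction 1, 0 and 3 of 14 were more than 1.5-fold lower, against 3.46%, 3.54% and 6.45%. Tnfrsf9, the costimulatory receptor 4-1BB, was at 108 CPM in vehicle, 341 with ORIN1001, 384 with docetaxel and 328 with both drugs. Pdcd1, the inhibitory receptor PD-1, was at 159 CPM in vehicle, 308 in ORIN1001 and 559.9 in the combination. Within CD8 T cells the list medians were 0.66, 0.70 and 0.75, and Tnfrsf9 was at 29.0 CPM in vehicle and 248 in ORIN1001. Nr4a2 was thus higher with these genes in CD8 T cells and Nr4a1 lower. The list was chosen with earlier results of these libraries in view and is no independent evidence.

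The level of neutrophil RNA in other classes was estimated from the 8 neutrophil markers, since neutrophils had the highest Egr1. These markers summed to 389, 1044, 173 and 83.9 CPM in macrophages of vehicle, ORIN1001, docetaxel and the combination and to between 67.9 and 500.0 CPM in T cells. By that estimate it would account for 11.5% to 20.4% of the Egr1 level in T cells, 14.9% to 18.1% in monocytes and 3.54% to 12.6% in macrophages. For Nr4a1 the same estimate was 1.05% to 1.53% in T cells and 1.10% to 5.39% in macrophages. With it taken off, the log2 ratio of Egr1, combination to vehicle, was -2.27 in macrophages against -2.20 as measured, and -0.96 in T cells on both counts. The Egr1 ratio of ORIN1001 to vehicle moved more, to -1.05 from -0.91 in macrophages and to -0.82 from -0.67 in T cells. For Egr3 in macrophages the estimate was 11.4% to 27.3% of the level, and the docetaxel ratio was -2.18 against -1.89 as measured. For Egr3 in monocytes the estimate was 73.8% to 137% of the level, and Egr3 there is not read as expression. The estimate counts every UMI of the 8 markers in a class as neutrophil RNA. Whether monocytes transcribe some of these markers themselves was not tested. At 137% it exceeded the measured level, so the estimate can be too high, also for Egr1 in monocytes.

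Over the 20 class and library sums of the 5 classes, the genes most like the mean of the NR4A and EGR members on log2(CPM + 10) were Zfp622, Mafk, Klf10, Ier2 and Spag9, with Pearson correlations of 0.93, 0.91, 0.90, 0.90 and 0.90. Those most like the mean of FOS and JUN were H3f3a, Zfp36, Zfand5, Osm and Arhgap23, at 0.91, 0.91, 0.90, 0.90 and 0.90. The members themselves were uneven in this. Egr2 and Nr4a1 had 0.94 and 0.86 with their family mean, and Nr4a2 had -0.12. Fos and Jun had 0.95 and 0.93 with theirs, and Fosb had -0.02. The 20 points share 4 libraries and differ mostly by class, so these values describe where the genes are expressed.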

How the data were processed

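The authors deposited raw UMI counts per gene and barcode, made with Cell Ranger 5.0.1 per the file headers. Per the submitters' processing notes the genome was mm10 and Seurat 4.0.1 was used downstream. The deposited counts had not been normalized, and no cell annotation was used here.

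Barcodes with at least 200 genes and under 10% mitochondrial UMIs were kept, and in every library the highest Scrublet scores (scanpy 1.11.5) were removed at 0.8% per 1000 cells. Scrublet's own cut had marked 205, 0, 106 and 163 cells, which is why 1 rate was used for all. A cell joined the class with the highest mean scaled marker level if that score was at least 0.15 and led the next class by 0.05. Of the kept cells 2.05% to 5.30% stayed without a class.

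UMIs were summed per class and library and given as CPM. Log2 ratios carry exact 95% intervals for 2 Poisson counts and were read where both libraries together had at least 50 UMIs. On counts simulated for ORIN1001 to vehicle, 95.3% of such intervals over 10090 neutrophil genes held the true ratio. The simulated counts were Poisson, as the intervals assume, so this checks the calculation only. It does not cover spread between cells, mice or libraries. Shares carry Clopper-Pearson limits. A gene counted as past the fold at 1.5-fold, over all genes of the class, as background. Levels are given for classes of at least 25 cells.

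Gene models are GENCODE M21 for GRCm38. All 10 members are named, and from each list up to 3 genes with the largest ratios per class and drug library. Promoter letters are RefSeq's for GRCm38.p6. The members and lists were chosen with earlier results of these data known. Alternatives were no doublet removal, mitochondrial UMIs under 5%, a gate margin of 0.10, Leiden clusters, TMM scaling (edgeR 4.0.16), cells weighted equally, no UMI minimum, and thinning to 2000 UMIs or none.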

Additional observations from a re-analysis of the deposited data

Results flagged for a closer look

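Some members differed from their control in opposite directions under 1 drug, depending on whether the other drug was present. Of the 3 largest classes, only neutrophils had such cases with the counting intervals of both ratios clear of 0. The difference itself was not tested, and each value rests on 1 library per group. These ratios are of whole-class sums, and neutrophils of the libraries lay in different clusters. Combination to ORIN1001 and combination to docetaxel were not computed within clusters, so the part of cluster makeup was not tested. Neutrophil cluster medians to vehicle for Nr4a1, Nr4a2, Egr1, Egr2 and Egr3 were -1.24, -2.62, -0.32, -0.96 and -0.97 under ORIN1001. Under the combination they were -0.75, -1.06, 0.11, -0.76 and -0.41. For docetaxel, the log2 ratio without ORIN1001 (docetaxel to vehicle) and with it (combination to ORIN1001) was -0.40 and 0.72 for Nr4a1, -0.49 and 2.04 for Nr4a2, and -0.27 and 0.77 for Egr2. It was -0.35 and 0.74 for Egr3, -0.040 and 0.43 for Egr1, and 0.12 and -0.17 for Jun. Medians of all genes were 0.10 for docetaxel to vehicle and 0.16 for combination to ORIN1001. TMM scaling moved every gene of docetaxel neutrophils by -0.12, about the size of the Jun value for docetaxel alone, so that direction is not firm. For ORIN1001, the ratio without docetaxel (ORIN1001 to vehicle) and with it (combination to docetaxel) was -0.90 and 0.20 for Egr3 and -0.32 and 0.15 for Egr1. With an interval that crossed 0, the signs were also opposite for docetaxel on Nr4a3 in neutrophils (-0.17 and 1.21) and in T cells (0.42 and -0.15), and for ORIN1001 on Egr3 in macrophages (-0.73 and 0.36).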

How the results depend on the processing

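Of 126 family medians recomputed in the 3 largest classes, 112 lay within the counting interval and 14 did not. The sign differed in 3: FOS and JUN in neutrophils under ORIN1001 with TMM scaling, and NR4A and EGR in T cells under docetaxel, at 0.14 without doublet removal and 0.0075 with cells weighted equally. TMM scaling moved every gene of neutrophils by 0.11 (ORIN1001), -0.12 (docetaxel) and -0.10 (combination) on the log2 scale. It gave neutrophil NR4A and EGR medians of -1.04 for ORIN1001 and -0.44 for docetaxel, neutrophil FOS and JUN medians of 0.013, -0.17 and -0.39 for the 3 libraries, and -0.82 for FOS and JUN in macrophages under ORIN1001. Under it Jun in neutrophils under docetaxel was at 0.00 and Egr1 under the combination at 0.01, so neither direction is firm. Without doublet removal the FOS and JUN median was -0.22 in ORIN1001 neutrophils and -1.45 in combination T cells. With cells weighted equally it was -0.86 in ORIN1001 macrophages, -0.91 in ORIN1001 T cells and -1.23 in combination T cells. The stricter gate and the Leiden clusters gave -0.88 and -0.89 in docetaxel T cells, and the clusters gave -1.08 in combination macrophages. Apart from TMM, which scales all genes alike, the cause was not tested. Over the members' 540 ratios 457 held and 5 had another sign. Members more than 1.5-fold lower numbered between 50 and 56 of 90, with 54 as reported. Nr4a1 shares were higher at deeper thinning, from 5.36% to 9.88% in combination macrophages at 2000 UMIs. Leaving out a library was not possible with 1 per group. No paired analysis was possible because each group had 1 library. Depth limits Egr3 outside neutrophils and all NK cell values.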
